A study of Mus musculus with 12 samples.

Results

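The genes described here are 36 class I odorant receptor genes of the mouse, Olfr600 to Olfr645 by number with pseudogenes left out, of 44930 genes in the table and 151 in the class I cluster on chromosome 7. The rule for membership is the symbol and uses no measured value, but the set was proposed with earlier results of these data known. They lie between positions 103343482 and 104085465 of chromosome 7 (GRCm38), a stretch of 742 kb. RNA of the olfactory mucosa was sequenced from 6 mice with the eB deletion (labelled delta eB), which removes 1155 bp at chromosome 7, positions 102847692 to 102848846, and from 6 wildtype mice. All 12 were male, of 129S6;C57BL/6J background, and were taken at postnatal day 30. The labels do not say whether the deletion was carried on one or both chromosomes, and nothing beyond the sample numbers links an animal of either genotype to another.

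Odorant receptors are G protein-coupled receptors of the cilia of olfactory sensory neurons, and each mature neuron transcribes a single allele of a single receptor gene. Class I receptors resemble those of fish, are known for responses to carboxylic acids, and are used by neurons of the dorsal epithelium. Their genes are packed in a single cluster, where distant enhancers act on which gene a neuron chooses. The question put by the comparison is whether removal of the enhancer element eB changes the RNA of these genes. Whole mucosa was sequenced, so that fewer neurons that use a gene and less RNA of it per neuron cannot be told apart.

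The members start 495 kb from the deleted interval with Olfr600 and reach 1233 kb with Olfr645. None overlaps it. On the plus strand lie 14 and on the minus strand 22. The beta-globin genes sit inside the stretch, with 24 members before them and 12 after. Also inside it are 12 class I genes that the rule for membership does not take in, 7 of which were tested. This group and the other receptor groups used for comparison were not filtered for pseudogenes. Coding sequences of the members ran from 924 to 981 bases. Between any 2 members the coding bases were 58.0% to 97.5% identical (median of 61.8% over 630 pairs), and for 27 of 36 the closest relative among 1133 receptor genes was another member.

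Some close relatives are shown because their values are compared below. Olfr608, Olfr622 and Olfr629 are a group of related genes, with 81.6% to 83.9% identical coding bases between them, although they lie 621, 790 and 891 kb from eB and Olfr608 is read from the opposite strand. The 120 coding bases below, the stretch without gaps in which they differ most, carry capitals at the 29 positions where the 3 genes are not all alike. Bases are counted from 1 at the start codon, and the sequences are from GENCODE M21 transcripts on GRCm38.
Olfr608, coding bases 728 to 847: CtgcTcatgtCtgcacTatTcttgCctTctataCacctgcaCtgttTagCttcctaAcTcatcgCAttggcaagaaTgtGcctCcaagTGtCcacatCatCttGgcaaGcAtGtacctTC
Olfr622, coding bases 728 to 847: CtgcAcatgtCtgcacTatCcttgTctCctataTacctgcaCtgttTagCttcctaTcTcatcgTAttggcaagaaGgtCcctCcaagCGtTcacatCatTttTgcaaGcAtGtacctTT
Olfr629, coding bases 725 to 844: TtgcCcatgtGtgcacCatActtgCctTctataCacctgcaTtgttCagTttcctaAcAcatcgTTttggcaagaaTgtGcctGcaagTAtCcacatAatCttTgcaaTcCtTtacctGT
Olfr606 and Olfr630 are 86.3% identical, and differ at 22 of 120 bases in the stretch below, chosen and marked in the same way.
Olfr606, coding bases 473 to 592: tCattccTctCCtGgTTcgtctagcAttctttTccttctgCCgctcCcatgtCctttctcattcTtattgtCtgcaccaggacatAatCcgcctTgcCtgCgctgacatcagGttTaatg
Olfr630, coding bases 473 to 592: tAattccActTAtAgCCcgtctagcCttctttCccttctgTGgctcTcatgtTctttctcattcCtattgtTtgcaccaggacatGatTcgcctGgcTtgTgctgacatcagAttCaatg
Olfr611 and Olfr612 are the closest pair among the members, with 22 substitutions and 2 gaps over 970 aligned positions (97.5% identical), and in their most divergent stretch only the 9 bases in capitals tell a read of one from a read of the other.
Olfr611, coding bases 493 to 612: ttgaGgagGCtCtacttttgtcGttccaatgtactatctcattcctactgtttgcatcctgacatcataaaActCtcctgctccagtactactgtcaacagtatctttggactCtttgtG
Olfr612, coding bases 493 to 612: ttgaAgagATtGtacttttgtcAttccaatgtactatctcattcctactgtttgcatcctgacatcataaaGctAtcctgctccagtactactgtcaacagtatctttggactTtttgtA

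Coding sequences were compared over 1133 protein-coding receptor genes of the 1380 receptor genes in the table, so that closer relatives among the rest are not known. Of the members, 6 had a relative among those compared at 95% identity or more. Reads of both could have been shared or dropped by the counting, and their single values are uncertain. The 6 are Olfr611 and Olfr612, Olfr635 and Olfr638 (96.6%), Olfr603, which is 99.5% identical to Olfr596 outside the number range, and Olfr628, which is 97.5% identical to Olfr243. Olfr615 and Olfr616 overlap by 52 bp on opposite strands. From Olfr638 onwards 8 members overlap the annotated extent of the gene AC124410.1, and 6 of these are on its strand; that gene itself had at most 5.77 normalized counts in any animal. Olfr617 shares 110 bp with Gm26506 on its own strand, and Olfr635 overlaps AC122535.9 on the opposite strand.

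The libraries held 13152662 to 23059835 reads on genes, of which 103840 to 163236 fell on odorant receptor genes and 2471 to 4102 on the 36 members. The libraries differed in further respects. The predicted gene Gm10800 took 11.02% of reads in wildtype 2 and 2.38% in eB deletion 4, then 0.554% in eB deletion 1 and 0.329% in wildtype 5, and at most 0.00514% in the other 8. Results are therefore also given without these libraries.

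All 36 members had reads, and most were low. Values are normalized counts, that is reads divided by the authors' size factor for each library. The mean over the 12 animals ran from 8.90 in Olfr638 to 233 in Olfr615, and the 5 highest members held 31.1% of the summed level. Olfr638 had a value of 10 or more in 3 animals only and was not tested, with a median of 7.16 (3.87 to 9.52) in eB deletion animals and 9.33 (3.71 to 23.1) in wildtype animals. The other 35 reached a value of 10 in 6 or more animals, whatever their genotype, and were tested.

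Per kb of exon, which allows genes to be compared, the tested members spanned a 17.1-fold range around a median of 24.8 normalized counts per kb. The highest was Olfr610, at 92.9 per kb in eB deletion and 105.8 per kb in wildtype animals. Below it came Olfr615 (62.1 in eB deletion and 72.4 in wildtype), Olfr617 (62.8 and 65.5 in the same order), Olfr609 (52.2 and 58.5), Olfr644 (50.03 and 59.9) and Olfr640 (50.5 and 56.3), all per kb. The lowest were Olfr611 (6.07 in eB deletion and 5.58 in wildtype), Olfr624 (6.41 and 6.21), Olfr605 (5.63 and 7.15) and Olfr645 (5.84 and 8.24). The highest and the lowest tested member, Olfr610 and Olfr611, are neighbours in the cluster.

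**Figure D1:**
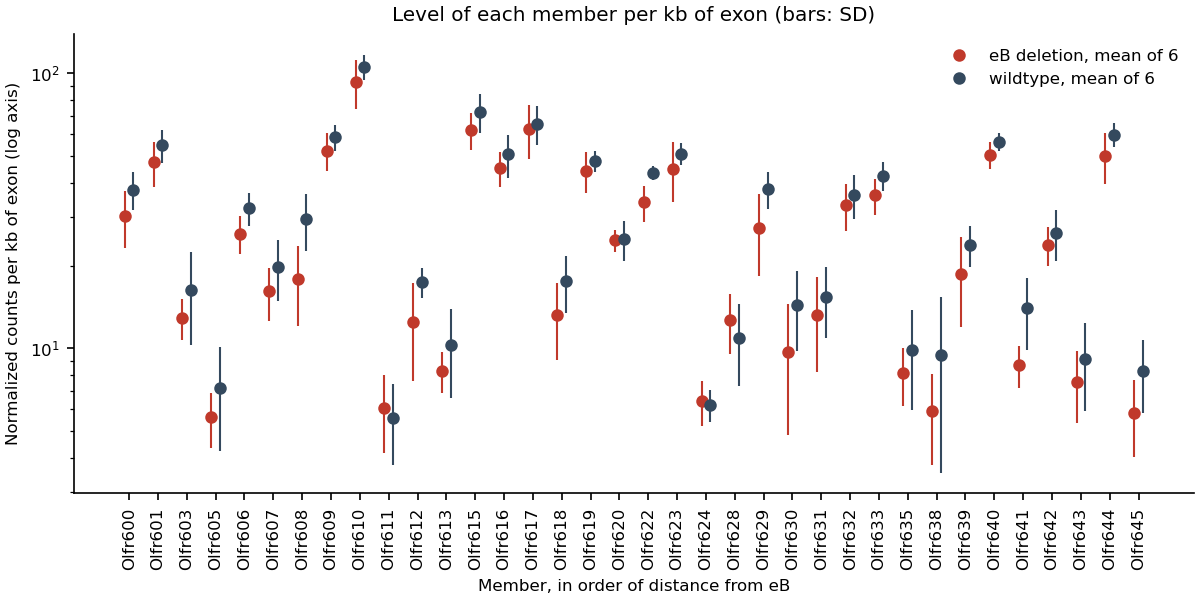
Level of each of the 36 members in normalized counts per kb of exon (log axis), in order of distance from eB. Red points are means of 6 eB deletion animals, blue points means of 6 wildtype animals, bars are SD, and the wildtype point is the higher in all but a few genes, with Olfr610 highest of all at 92.9 per kb in eB deletion animals.

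Most members were lower in eB deletion animals, by a similar amount across the stretch, and no single one passed the test over all genes. Of the 35 tested, 32 had lower and 3 higher log2 values in eB deletion animals, against 48.3% lower among all 19100 genes tested. Their median log2 fold change was -0.24, or -15.5%, where that of all genes was 0.00. With limma-trend on log2(value + 1), 0 members and 0 of 19100 genes (0%) passed a Benjamini-Hochberg adjusted p of 0.05, and the members' adjusted p ran from 0.728 to 0.999. At an unadjusted limma p under 0.05, 10 members were lower and 0 were higher, which is 28.6% of those tested, where 5.64% of all genes tested passed in either direction, 2.82% lower and 2.83% higher. Of 946 tested class II receptor genes, which lie outside the cluster, 6.34% were lower and 4.55% higher by the same rule. DESeq2 on the recovered reads called 22 of 19100 genes (0.115%) and edgeR's quasi-likelihood test 0, none of them members. To some low members, Olfr641 among them, DESeq2 gave no adjusted p, and so could not call these. At an unadjusted p DESeq2 had 9 members lower (2.88% of all genes) and edgeR 7 (3.22% of all genes). An adjusted p under 0.05 is given to 8 genes in the authors' deposited table, 0 of them members.

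The count of 10 rests on single animals. It became 18 without eB deletion 1, and fell to 5 without eB deletion 3, 4 without eB deletion 5 and 6 without eB deletion 6. It was 6 without wildtype 1 or wildtype 4 and 5 without wildtype 2 or wildtype 5. Without both libraries with over 1% of reads on Gm10800 it was 6, and without all 4 with over 0.1% it was 10. Of all genes tested, 2.45% to 3.15% were lower by the same rule in these fits. The number of members with lower values stayed between 31 and 33 in all of these fits, and the median log2 fold change between -0.29 and -0.17.

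The members of smallest p came from several places in the stretch. Olfr622 had 63.0 to 95.6 normalized counts in eB deletion animals (median of 74.9) and 89.8 to 104 in wildtype animals (median of 97.8). Here eB deletion 1 lay among the wildtype values and the other 5 below all of them. Its log2 fold change was -0.36 ± 0.11 (SE; limma adjusted p = 0.728). Its relative Olfr608 had 15.2 to 36.2 in eB deletion animals (median of 27.3) and 29.7 to 54.1 in wildtype animals (median of 44.0). This was the lowest log2 fold change among the members, -0.74 ± 0.23 (SE; limma adjusted p = 0.728), and the groups overlapped, with 3 deletion animals below all wildtype animals. The other relative, Olfr629, had 49.4 to 111 in eB deletion animals (median of 64.7) and 89.8 to 129 in wildtype animals (median of 93.0), a log2 fold change of -0.51 ± 0.18 (SE; limma adjusted p = 0.795). As in Olfr622, eB deletion 1 was the highest of its group and the other 5 lay below all wildtype animals. These 3 related genes thus hold 3 of the 4 smallest limma p-values among the members. That they are related was seen after their values, and whether it bears on their difference was not tested.

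Olfr641, at chromosome 7, positions 104035445 to 104042072, was the one member whose groups did not overlap. It had 15.3 to 24.2 normalized counts in eB deletion animals (median of 21.0) and 26.1 to 51.9 in wildtype animals (median of 30.1). Its log2 fold change was -0.64 ± 0.20 (SE; limma adjusted p = 0.728). Of all genes tested, 0.157% had every deletion animal below every wildtype animal. The gene is low, with few reads behind each value, and lies on the other strand within AC124410.1. The highest wildtype value, 51.9 in wildtype 4, stands apart from the rest of its group, and without that animal the log2 fold change was still below 0, within a range of -0.70 to -0.51 over the 12 fits that leave out 1 animal.

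The other members of smallest p showed more overlap. Olfr606 had 53.3 to 80.9 normalized counts in eB deletion animals (median of 73.4) and 73.3 to 104 in wildtype animals (median of 85.8), a log2 fold change of -0.31 ± 0.13 (SE; limma adjusted p = 0.858). Its relative Olfr630 had 9.60 to 36.4 in eB deletion animals (median of 17.8) and 24.9 to 51.9 in wildtype animals (median of 28.2), a log2 fold change of -0.64 ± 0.29 (SE; limma adjusted p = 0.878). In Olfr630 eB deletion 1 and eB deletion 2 lay among the wildtype values and the other 4 below all of them. Olfr612 had 11.6 to 44.7 in eB deletion animals (median of 32.5) and 34.0 to 50.2 in wildtype animals (median of 45.8), a log2 fold change of -0.58 ± 0.26 (SE; limma adjusted p = 0.877). Its near copy Olfr611 had 7.75 to 20.5 in eB deletion animals (median of 13.3) and 7.57 to 17.6 in wildtype animals (median of 13.2), at 0.12 ± 0.27 (SE; limma adjusted p = 0.984), so that the closest pair among the members stood on opposite sides of 0. Olfr644, one of the most abundant members, had 123 to 210 in eB deletion animals (median of 206) and 197 to 257 in wildtype animals (median of 215), a log2 fold change of -0.28 ± 0.13 (SE; limma adjusted p = 0.878). There eB deletion 5 and eB deletion 6 were low and the other 4 overlapped the wildtype values.

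**Figure D2:**
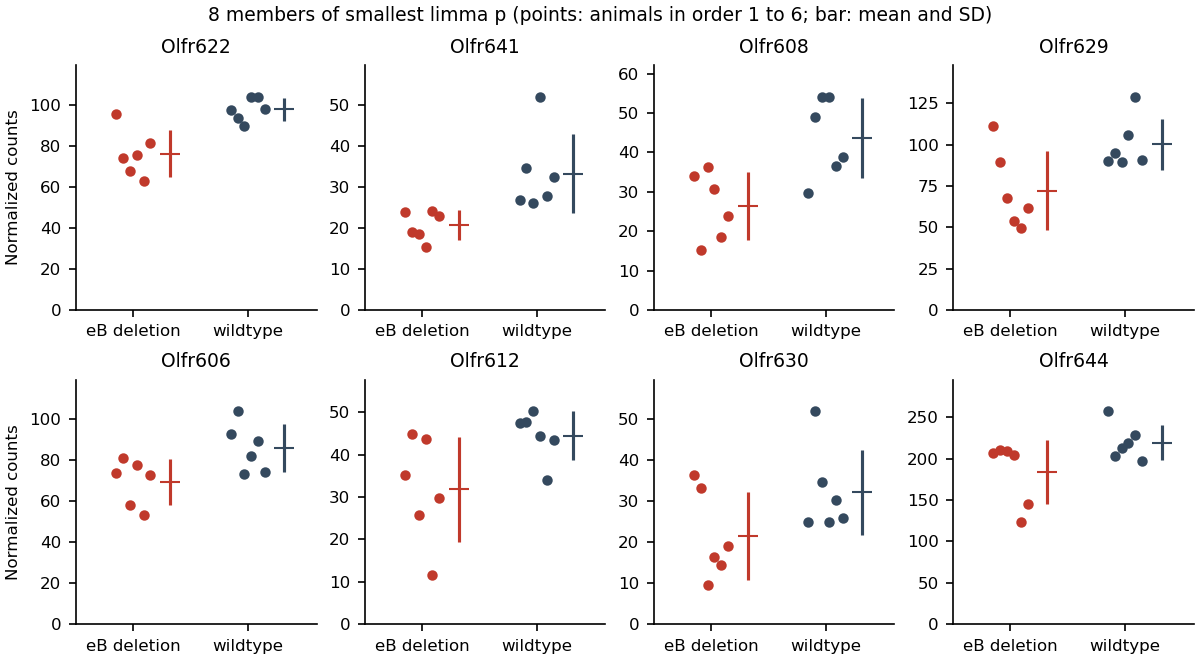
Normalized counts of the 8 members of smallest limma p, each panel with its own axis from 0. Red points are the 6 eB deletion animals, blue points the 6 wildtype animals, in the order of their numbers, and bars give mean and SD, with the groups apart in Olfr641 only.

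At the ends of the stretch, Olfr600, nearest to eB, had 63.0 to 132 normalized counts in eB deletion animals (median of 113) and 102.1 to 163 in wildtype animals (median of 135), a log2 fold change of -0.34 ± 0.16 (SE; 95% interval -0.68 to 0.00). Olfr645, the farthest, had 15.3 to 31.7 in eB deletion animals (median of 19.2) and 21.3 to 47.6 in wildtype animals (median of 27.9), a log2 fold change of -0.48 ± 0.22 (SE; 95% interval -0.96 to -0.01). Just outside the number range, Olfr599 averaged 95.5 ± 14.1 in eB deletion animals and 100.3 ± 24.6 in wildtype animals, and Olfr646 averaged 55.2 ± 10.8 in eB deletion animals and 64.1 ± 16.9 in wildtype animals (SD, n = 6 each).

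Of the 6 members of highest level per kb, Olfr644 is given above, with a 95% interval of -0.56 to -0.01. Olfr610 had 124 to 206 normalized counts in eB deletion animals (median of 143) and 145 to 195 in wildtype animals (median of 175), at -0.20 ± 0.12 (log2, SE). Olfr615 was at -0.22 ± 0.12, Olfr640 at -0.16 ± 0.09, Olfr609 at -0.17 ± 0.11 and Olfr617 at -0.07 ± 0.14, all as log2 fold change with SE. The 95% intervals of these 5, without Olfr644, take in 0, and so allow for no difference as well as for the median of the members.

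Of the 3 members with higher values, Olfr628 was highest at 0.22 ± 0.24, with 14.0 to 25.2 normalized counts in eB deletion animals (median of 19.7) and 11.6 to 24.5 in wildtype animals (median of 15.3). The others were Olfr611, given above, and Olfr624 at 0.04 ± 0.16. Both are low, and the sign of each turned when single animals were left out. Olfr620, an abundant member named here after its values were seen, was at -0.00 ± 0.10 (log2, SE), with a 95% interval of -0.22 to 0.21 that does not reach the median of the members.

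Log2 fold changes showed no trend along the stretch: over the 35 tested members, which share the 12 libraries, their Spearman correlation with distance from eB was -0.004. The median was -0.23 for the 24 members before the beta-globin genes and -0.24 for the 11 tested members after them, where all 11 were lower. It was -0.24 on the plus strand and -0.25 on the minus strand. Among the more abundant members per kb, 17 of 17 were lower, with a median of -0.21, and among the less abundant 15 of 18, with a median of -0.26. The SE was larger in members of lower mean, from 0.09 in Olfr640 to 0.29 in Olfr630.

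**Figure D3:**
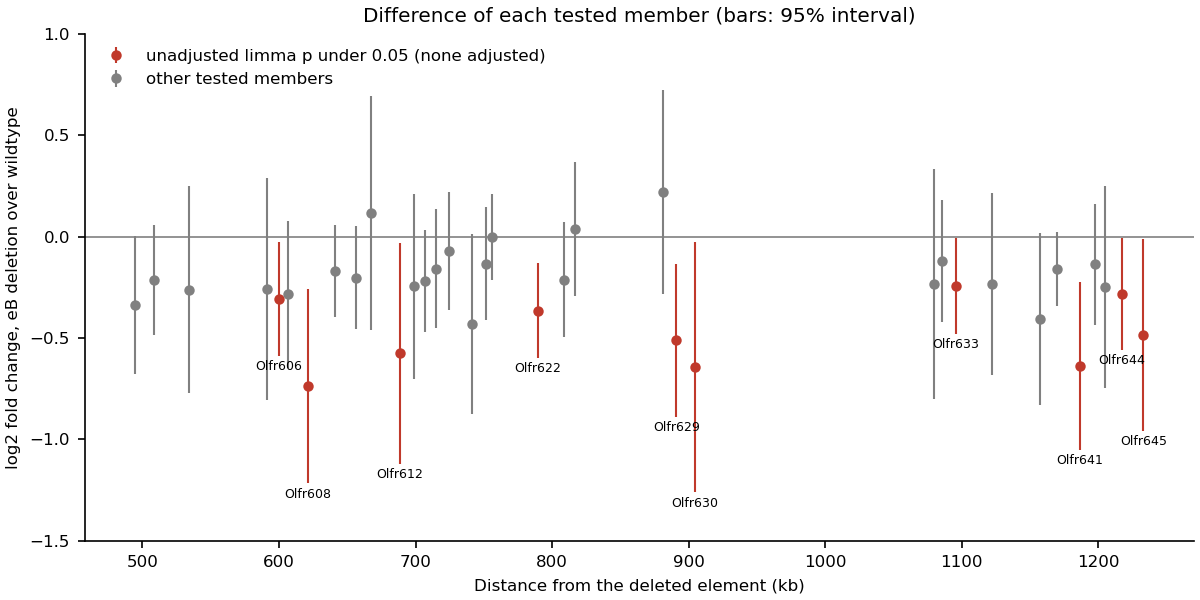
Log2 fold change of each of the 35 tested members, eB deletion over wildtype, against distance from the deleted element in kb. Bars are 95% intervals, red marks the 10 members with an unadjusted limma p under 0.05, and the points lie mostly below 0 from 495 to 1233 kb without a slope.

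The deletion animals were spread widely. Relative to the wildtype mean of each gene, the median log2 difference over the 35 tested members was lowest in eB deletion 5 (-0.57). It was -0.32 for eB deletion 6, -0.31 for eB deletion 3, -0.14 for eB deletion 4 and -0.06 for eB deletion 2, and highest for eB deletion 1 (0.09). In wildtype animals it ran from -0.17 in wildtype 3 to 0.14 in wildtype 2. Thus 3 of 6 deletion animals lay below every wildtype animal and 3 within their range. In eB deletion 5, 34 of 35 members lay below the wildtype mean and 18 were the lowest value of the group. In eB deletion 1, 13 lay below it and 19 were the highest value of the group.

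**Figure D4:**
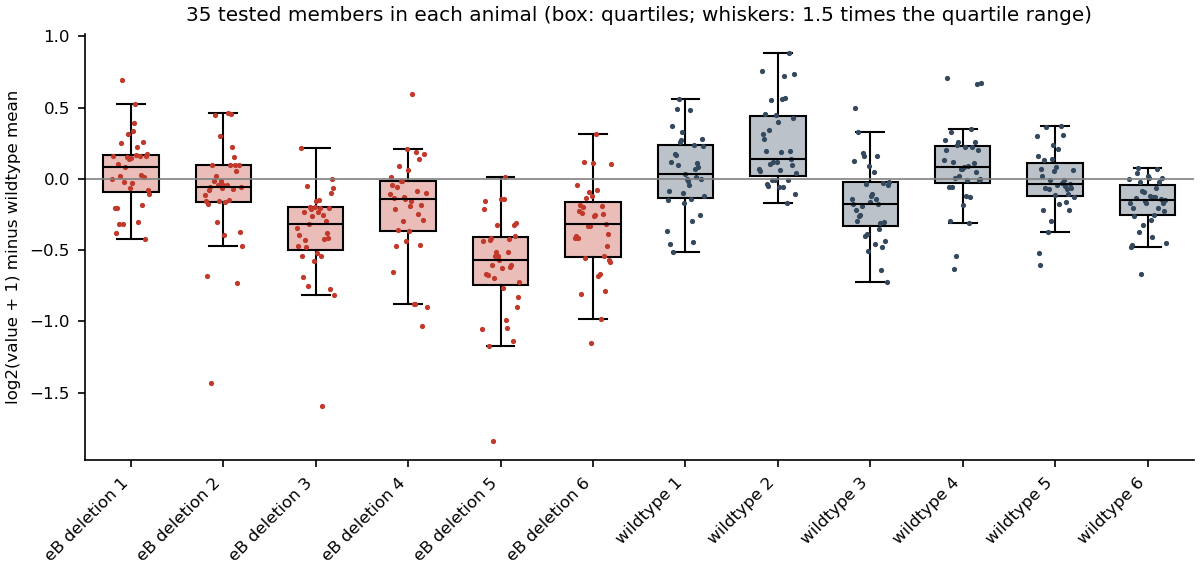
Each animal's log2(value + 1) of the 35 tested members minus the wildtype mean of that gene. Red boxes are eB deletion animals and blue boxes wildtype animals, each point is a member, boxes are quartiles, and the medians run from -0.57 in eB deletion 5 to 0.14 in wildtype 2.

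Counted as a share of all odorant receptor reads, which does not depend on how many receptor reads a library holds, the members were lower as a group. They are 36 genes again, since shares need no filter. The 36 members took 2.33% ± 0.28 of receptor reads in eB deletion animals and 2.71% ± 0.13 in wildtype animals (SD, n = 6 each). The share was lowest in eB deletion 5 at 1.87% and highest in eB deletion 1 at 2.70%, with a median of 2.37%, and in wildtype animals it ran from 2.52% to 2.89% with a median of 2.73%. Only eB deletion 1 overlapped the wildtype values. The difference was -0.38 percentage points ± 0.12 (SE), or -14.1% of the wildtype share. No test is given for this sum, since the set was not chosen blind to these data. When 1 animal was left out the difference ran from -0.46 to -0.29 points, and it was -0.40 points without the libraries above 1% Gm10800 and -0.55 without those above 0.1%.

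The members were not set apart from the rest of the cluster. Among all class I reads they took 27.3% ± 0.79 in eB deletion animals and 27.4% ± 0.96 in wildtype animals (SD, n = 6 each), a difference of -0.09 points ± 0.51 (SE). The 43 tested class I genes at lower coordinates had a median log2 fold change of -0.22 with 39 lower, and the 35 at higher coordinates a median of -0.27 with 33 lower. By the unadjusted limma rule, 8 genes were lower in each of these groups, against 10 of 35 members. The genes at lower coordinates took 2.68% ± 0.22 of receptor reads in eB deletion animals, against 3.11% ± 0.15 in wildtype animals, without overlap. Those at higher coordinates took 3.01% ± 0.36 in eB deletion animals, against 3.50% ± 0.19 in wildtype animals (SD, n = 6 each). The 7 tested class I genes that lie between members were all lower, with a median of -0.22. Over 946 class II receptor genes, which lie elsewhere in the genome, the median was -0.03.

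**Figure D5:**
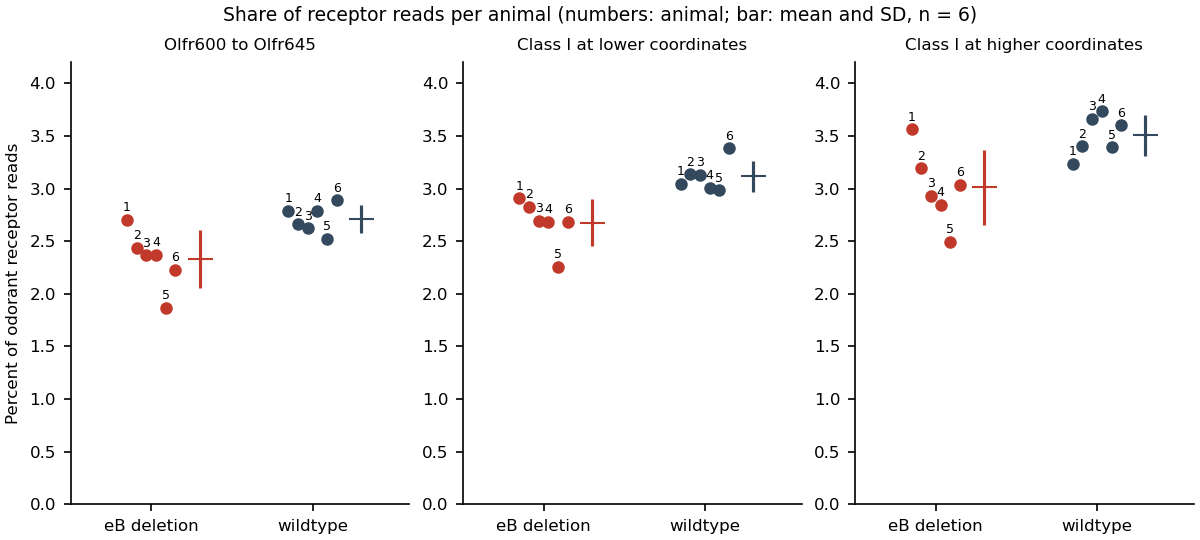
Share of odorant receptor reads per animal taken by the 36 members and by the class I genes at lower and at higher coordinates. Red points are eB deletion animals, blue points wildtype animals, numbers name the animal, bars are mean and SD, and eB deletion 5 is lowest in each panel, at 1.87% for the members.

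The neighbours and the machinery of these neurons are given for comparison. Of 11 nonreceptor genes that lie between members, 2 were tested. These are adult beta-globin genes, Hbb-bs with -0.11 ± 0.28 and Hbb-bt with -0.06 ± 0.31 (log2, SE), errors larger than the median difference of the members. Of 13 genes of the odor transduction cascade, 0 passed in either direction over all genes in limma, with a median of 0.05, and Pde4a alone had an unadjusted p under 0.05, on the higher side. The G protein gene Gnal was at 0.06 ± 0.08 and the channel gene Cnga2 at 0.12 ± 0.07 (log2, SE). For receptor transport to the membrane the median of 3 genes was 0.06 (Rtp1, 0.09 ± 0.07), and for 11 regulators of receptor choice it was 0.03, with 0 passing in each list. Lhx2, a homeodomain factor that binds receptor enhancers, was at -0.01 ± 0.06, and Ebf2 at 0.05 ± 0.06 (log2, SE).

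Markers of the mature sensory neuron had a median of 0.07 over 6 genes, with Omp at -0.03 ± 0.09. Their summed level was 142770 to 177152 normalized counts in eB deletion animals and 136784 to 164430 in wildtype animals. Genes of the dorsal zone, where class I neurons lie, were partly lower too. Nqo1 averaged 5891 ± 1031 in eB deletion animals and 7587 ± 1625 in wildtype animals (SD, n = 6 each). Its log2 fold change was -0.35 ± 0.14 (SE; limma adjusted p = 0.850), while Acsm4 was at -0.08 ± 0.09 and Robo2 at 0.03 ± 0.06. The summed level of these 3 genes was 17216 to 23520 in eB deletion animals and 20184 to 27246 in wildtype animals. The 5 ventral zone genes all had higher values, with a median of 0.06, Nrp2 at 0.15 ± 0.06 and 0 past the adjusted threshold. The part of zone composition in the members' difference was not tested. Among the other cell types, progenitor markers had 5 of 5 lower with a median of -0.10, summing to 3335 to 4695 in eB deletion animals and 3300 to 4894 in wildtype animals. Immature neurons had a median of -0.02 and vomeronasal neurons -0.04. The vomeronasal value rests on 2 of 3 listed genes, Gnai2 and Gnao1, as Trpc2 was not found by its symbol. Sustentacular cells had a median of 0.09, horizontal basal cells -0.05, ciliated cells 0.00, ensheathing glia -0.07, immune cells -0.06 and red blood cells 0.01.

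The start regions could be shown for few members. RefSeq windows were found for 32 of 36, and only for Olfr607 and Olfr630 does the RefSeq start lie within 50 bp of the GENCODE gene start. The 225 bases shown for these run from 250 to 26 bases before the RefSeq start (GRCm38.p6, minus strand), with homeodomain letters in capitals, searched as TAATTA and TAATGA on both strands. A match is a description of the sequence and does not mark a site.
Olfr607, chr7:103464152-103464376: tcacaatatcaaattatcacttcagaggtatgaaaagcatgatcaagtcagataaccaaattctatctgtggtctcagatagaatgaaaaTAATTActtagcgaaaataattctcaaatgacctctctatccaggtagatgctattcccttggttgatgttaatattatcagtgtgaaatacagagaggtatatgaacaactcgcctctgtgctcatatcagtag
Olfr630, chr7:103757376-103757600: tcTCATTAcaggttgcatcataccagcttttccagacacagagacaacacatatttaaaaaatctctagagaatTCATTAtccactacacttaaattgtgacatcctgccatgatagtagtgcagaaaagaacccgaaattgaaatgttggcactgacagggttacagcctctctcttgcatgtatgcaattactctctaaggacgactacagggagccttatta
TAATTA is in the first window and in 4.62% of 32851 windows of the same length, and TAATGA is in the second, read on the other strand at both places, and in 8.01% of all windows. The palindrome bound by Ebf factors was found in neither, and in 0.7% of all windows. Olfr607 averaged 92.1 ± 20.2 normalized counts in eB deletion animals and 113 ± 28.0 in wildtype animals (SD, n = 6 each). Its log2 fold change was -0.29 ± 0.17 (SE), beside the -0.64 ± 0.29 of Olfr630.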

How the data were processed

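The authors deposited 1 table of 44930 genes by 12 animals, and its signal is the reads of each gene divided by a size factor of the library, as the values themselves show: 100% of nonzero values in a column are whole multiples of 1 step (relative tolerance 0.001). The whole reads recovered this way gave the shares and the count tests. The deposited log2 fold change, score (test statistic) and p-value columns are the authors' own comparison. The submitters' processing notes name STAR 2.6.0, DESeq2 and GRCm38.p6, and per the labels' protocols libraries were stranded and depleted of ribosomal RNA. No source used here gives the counting tool, its annotation or its strand setting.

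Differences are eB deletion minus wildtype. They come from limma-trend (version 3.58.1, in R 4.3.3) fitted to log2(value + 1) of 19100 genes that reached 10 in 6 or more samples, with Benjamini-Hochberg adjustment over all of these at 0.05. The added 1 draws fold changes of low genes towards 0, compared with a smaller pseudocount; the count models weight animals differently and gave smaller changes for some low members. Alternatives used edgeR 4.0.16 and DESeq2 1.42.0 on recovered reads, other pseudocounts, filters and scalings, a replicate block, and fits without single libraries. The procedures were checked on simulated counts. The rule for passing covered false calls and changes much larger than the members' median, so it does not bear on changes of the members' size. Positions and exon lengths are from GENCODE M21 (44840 genes matched by identifier), and coding sequences were aligned end to end with edlib 1.3.9.post1. The build of the eB coordinates is not stated beside them and was taken as GRCm38. No litter is given, and p-values measure the spread between these 12 animals. Libraries of a group differed by far more than sampling noise (chi-square per degree of freedom of 14.7 or more), so none was another of its group sequenced again. Separate preparations from 1 animal would also differ, and were not excluded. Pairs with wildtype 2 differed most, at 139 to 168, against at most 53.1 in the other pairs.

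The members and lists were chosen with earlier results of these data known. Members named with values are the 6 of highest and 4 of lowest mean per kb, the 8 of smallest p, the nearest and farthest from eB, and those of highest and lowest log2 fold change; Olfr607 and Olfr620 were added.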

Additional observations from a re-analysis of the deposited data

Results flagged for a closer look

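Single values that stand apart were looked for with Dixon's ratio, the distance from an extreme animal to its neighbour over the whole range (limit of 0.625 for groups of 6). It was passed in 3 of 44 groups, where chance gives about 1 in 20. In wildtype 4, Olfr641 had 51.9 normalized counts, against a group median of 30.1. Olfr645 had 47.6 in the same animal, against a group median of 27.9. In wildtype 2, the library with the most reads on Gm10800, Olfr630 had 51.9, against a group median of 28.2.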

How the results depend on the processing

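The number of genes called over all genes was 0 in limma under the other pseudocounts, filters and scalings, in edgeR and with a replicate block, but 22 in DESeq2, and 0 to 1 when 1 animal was left out (1 without wildtype 6). The count of lower members at an unadjusted p ran from 4 to 18 when 1 animal was left out (2.45% to 3.15% of all genes). It was 6 when both libraries above 1% Gm10800 were left out (2.69% of all genes). With a replicate block it was 13 (2.84% of all genes), and the members' lowest limma adjusted p was 0.739. Whether sample numbers pair the animals is not known. Deviations of same-numbered animals correlated at -0.12 to 0.16, and none correlated best with its own number. Low correlations cannot show that same-numbered animals had no litter or handling in common. Members without overlap between groups numbered 2 when scaled to class II receptors, 4 without the libraries above 0.1% Gm10800, and 1 to 4 when 1 animal was left out (4 without eB deletion 1, 2 without wildtype 1). Smaller groups overlap less readily, and the share of all genes is known only for the main fit with 12 animals (0.157%). A rise in this count is thus not a result about the members. The median log2 fold change of the tested members ran from -0.29 to -0.17, and the difference in receptor read share from -0.46 to -0.29 points, when 1 animal was left out. As a share of all reads, a larger denominator, the difference was -0.00256 points, or -12.6% of the wildtype share, with 3 deletion animals below all wildtype animals in place of 5. Of 437 values of named genes under alternatives, 433 kept direction and did not cross the adjusted p threshold. Among these are DESeq2 values of some low members without an adjusted p, where only the direction could be compared. The 4 others changed sign when 1 animal was left out: Olfr611 ran from -0.010 (without wildtype 4) to 0.26, and Olfr624 from -0.035 (without eB deletion 1) to 0.078, and was -0.02 without eB deletion 6 and without wildtype 6. The cause was not tested. Keeping the side of the adjusted threshold says little, as the lowest adjusted p of a member in any fit was 0.332, in DESeq2. At an unadjusted limma p of 0.05 named genes did change side. The p of Olfr612, for example, went from 0.040 to 0.084 without eB deletion 5. Without the members at 95% coding identity to another receptor gene compared, 9 of 30 were lower at an unadjusted p and the median was -0.24. This alternative was chosen after seeing the data, and it did not search relatives that are not annotated as protein-coding. The same step by protein identity was not run. The SE was larger in members of lower mean, up to 0.29, and counting error was not separated from the spread between animals.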
